A study of Mus musculus with 6 samples.

Results

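Metallothioneins, the enzymes that make and use glutathione, the peroxiredoxins and thioredoxins and the targets of NRF2 are the main antioxidant genes of a cell, and their transcripts were compared between brains of mice given oil palm phenolics (OPP) and brains of control mice. The list held 47 genes, chosen by gene symbol. Of these, 44 had at least 1 probe on the array (59 probes among 24048), while *G6pdx*, *Prdx5* and *Prdx6* were not analysed here. The brains came from male BALB/c mice of 12 weeks of age, an inbred strain, all kept for 6 weeks on the same normal diet. The 3 controls drank distilled water, and the 3 treated mice drank OPP with an antioxidant content of 1500 ppm gallic acid equivalent (GAE). Mice of both groups also did weekly water maze and rotarod trials during the feeding and were killed with diethyl ether and bleeding. The comparison is thus of OPP with water in mice that went through these trials. OPP is an extract rich in phenolic acids. The brain RNA of each mouse went on an Illumina MouseRef-8 array of beads that carry gene probes, where a brighter probe (a higher intensity) reports more of its transcript. Per the methods, the RNA samples of best integrity were hybridized and outlying arrays were then dropped after clustering, so that the spread within groups given here is what that selection left. The methods also put as many mice in a cage as in a group without saying which mice shared one, so that cage and treatment cannot be told apart.

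NRF2, encoded by *Nfe2l2*, is a transcription factor that KEAP1 holds back and marks for destruction until oxidants or electrophiles modify KEAP1. NRF2 then binds antioxidant response elements (AREs) in genes of glutathione synthesis, quinone reduction and thioredoxin recycling. Metallothioneins are small cysteine-rich proteins that bind zinc and copper and can scavenge radicals. *Mt1* and *Mt2* are expressed in astrocytes and other non-neuronal cells of the brain and are induced by zinc through the factor MTF-1, which binds metal response elements (MREs), whereas *Mt3* is a brain form that is little induced by metals.

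The 250 bases before the RefSeq start of the metallothionein genes (GRCm38.p6, plus strand) are shown because *Mt1* and *Mt2* had the same direction in these brains and *Mt3* did not. The windows are chr8:94178839-94179088 for *Mt1*, chr8:94172368-94172617 for *Mt2* and chr8:94152357-94152606 for *Mt3*. Capitals mark the MRE core, TGCACNC or TGCGCNC, on either strand.
Mt1: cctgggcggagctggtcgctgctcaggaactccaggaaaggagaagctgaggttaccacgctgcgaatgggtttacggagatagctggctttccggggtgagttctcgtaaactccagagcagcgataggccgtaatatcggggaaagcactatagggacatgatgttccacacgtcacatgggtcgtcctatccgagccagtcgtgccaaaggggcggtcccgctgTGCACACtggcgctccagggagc
Mt2: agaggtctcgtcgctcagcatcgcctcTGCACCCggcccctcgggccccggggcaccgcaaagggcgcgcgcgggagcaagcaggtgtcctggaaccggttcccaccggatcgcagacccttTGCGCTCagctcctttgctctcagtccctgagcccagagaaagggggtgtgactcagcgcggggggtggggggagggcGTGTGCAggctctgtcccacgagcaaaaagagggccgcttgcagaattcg
Mt3: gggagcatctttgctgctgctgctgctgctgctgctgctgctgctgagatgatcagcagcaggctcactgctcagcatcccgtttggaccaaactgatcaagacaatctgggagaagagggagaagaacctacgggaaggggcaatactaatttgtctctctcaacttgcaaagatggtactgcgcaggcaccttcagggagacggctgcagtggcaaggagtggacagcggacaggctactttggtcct
The core was found 1 time for *Mt1*, 3 times for *Mt2* and 0 times for *Mt3*. At least 1 core was present in 21.4% of 32851 RefSeq mouse promoters and at least 3 in 1.26%. Whether most transcripts of these genes begin at the RefSeq start was not checked, so cores closer to another start would lie outside the windows. For *Mt1* in particular, the start used may lie upstream of that of most transcripts. The counts therefore do not give the number of MREs of a gene, and their part in the directions seen was not tested. The ARE core TGACNNNGC, on either strand and able to overlap a site of the AP-1 type, was found in the *Mt2* window too, in 9 of 54 promoter windows of the listed genes (16.7%) and in 10.2% of all promoters. Of the 18 windows of the NRF2 group, 2 held it (11.1%). A match describes letters and is not a bound site.

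A probe was tested when its mean detection level passed 0.99 in at least 1 group, which left 7611 probes and 5809 named genes. Each gene is given by its brightest tested probe, and fold changes are log2 intensities of OPP minus control with their standard error (SE) from limma. Of the listed genes 34 were tested, of which 33 were above background on all 6 arrays. *Blvrb* alone passed through 1 group, with 3 of 3 controls and 1 of 3 mice given OPP above background. No listed gene passed at an adjusted p under 0.05, where *Mt1* had an adjusted p of 0.989, and 1 of the 5809 genes (0.0172%) did. At an unadjusted p under 0.05, *Mt1* was lower in the OPP group and 0 genes of the list were higher. Among all tested genes 2.29% were lower and 1.7% higher by that rule. The intensities of all 3 mice given OPP lay below those of all controls in *Mt1*, *Mt2* and *Srxn1*, 3 of the 33 genes that passed in both groups. They lay above those of all controls in 0 genes. The shares among all tested genes were 5.41% below and 4.44% above, and these include genes that passed through 1 group only. The OPP values of *Blvrb* lay below its controls too, which makes 4 of the 34 tested genes, but its selection through the controls favours that direction. Without scaling only *Mt1* and *Blvrb* were separated in this way, against 2.10% of all tested genes. After quantile normalization *Mt1*, *Blvrb* and *Gpx3* were, against 4.54%.

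**Figure D1:**
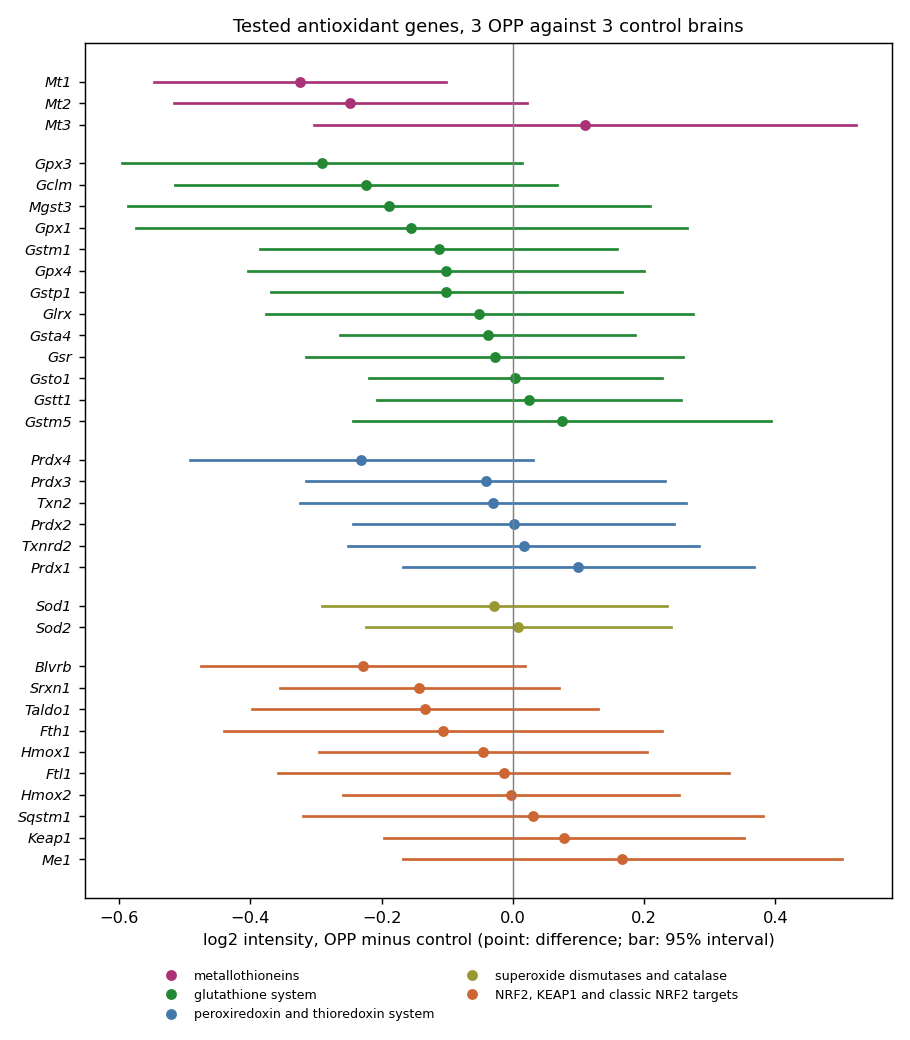
Log2 intensity of OPP minus control (x axis) for the 34 tested antioxidant genes (y axis), grouped by role, from 3 arrays per group, with points for the differences and bars for 95% intervals. The interval of Mt1 lies below 0 and those of the other 33 genes include it.

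The log2 fold changes of the 34 genes ran from -0.32 to 0.17 with a median of -0.04, against 0.00 over all tested genes. They lay above 0 in 11 genes and below it in 23, whereas 49.5% of all tested genes lay below 0. This split moved when scaling between arrays was left out, where 14 of the 34 genes lay below 0 and the median of all genes was 0.06. It was 22 below 0 after quantile normalization, 22 after normexp background correction and 25 on the authors' processed values. The 95% intervals reached no further than -0.60 and 0.52, and in 26 genes they stayed within 0.5 of 0 on either side. The SD within groups of the log2 intensity was 0.05 to 0.30 over the genes, with a median of 0.15, against 0.14 over all genes. For 1 gene taken by itself, the smallest two-sided p that an exact permutation of 3 against 3 brains allows is 0.1. The intensities contain background, of which 174 to 209 units per array were removed in the authors' processed values, so that differences of dim probes are smaller here than on those values.

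**Figure D2:**
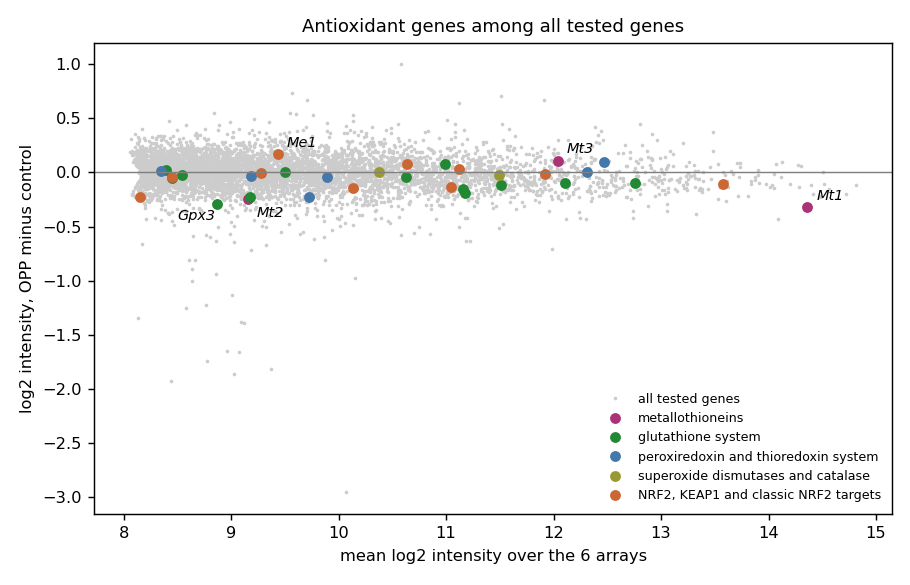
Log2 intensity of OPP minus control (y axis) against mean log2 intensity over the 6 arrays (x axis) for the 5809 tested genes (grey) and the 34 antioxidant genes (coloured by role). The antioxidant genes lie between -0.32 (Mt1, at the right) and 0.17 (Me1).

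Control replicate 2 stood apart, with a mean correlation of 0.962 with the other controls, against 0.974 and 0.975 for the others. Its 5 tested granulocyte markers had a mean log2 intensity of 12.09, against 9.04 and 9.37 in the other controls and 8.12 to 8.30 with OPP. Its 4 tested cerebellum markers averaged 9.97, against 11.76 and 11.40 in the other controls and 10.39 to 10.84 with OPP. The 7 tested neuron markers had means of 11.55 to 11.71 on all arrays. Of the astrocyte markers 5 were tested, and *Gfap* and *Slc1a2* were not above background on any array. The RNA came from mixed tissue, so that fewer cells of a type and less RNA per cell cannot be told apart.

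Of the metallothioneins, *Mt1* and *Mt2* lay lower in every mouse given OPP than in any control, and *Mt3* overlapped. The intensity of *Mt1* was 21986, 24662 and 23971 in the controls and 18293, 19686 and 18403 with OPP. The means were 23540 ± 1389 and 18794 ± 774 (SD, n = 3), so that the gap between the lowest control and the highest OPP value was wider than either SD. The log2 fold change was -0.32 (SE 0.10, 95% interval -0.55 to -0.10), a level 1.25-fold higher in the controls. It stayed below 0 in all 16 alternative analyses (-0.37 to -0.20) and passed unadjusted in 12 of them. It did not pass without scaling (-0.27), after quantile normalization (-0.20), after normexp background correction (-0.31) or on the authors' processed values (-0.33).

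*Mt2* had intensities of 578, 603 and 690 in the controls and 465, 572 and 540 with OPP. The highest OPP value lay just under the lowest control, and the groups overlapped without scaling, after quantile normalization and on the authors' processed values. The log2 fold change was -0.25 (SE 0.12, 95% interval -0.52 to 0.02) and ran from -0.31 to -0.16 with 1 brain left out. *Mt3*, also called growth inhibitory factor, had intensities of 3872, 5372 and 3192 in the controls and 4630, 3827 and 4706 with OPP. Control replicate 2 was the highest array and control replicate 3 the lowest, so that the controls spanned the whole OPP range. The log2 fold change was 0.11 (SE 0.18, 95% interval -0.30 to 0.52). Without control replicate 2 it was 0.31 and passed unadjusted, while without control replicate 3 it was -0.06.

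The astrocyte markers did not separate the groups, with summed intensities of 17994 to 22323 in the controls and 17249 to 20211 with OPP and a median log2 fold change of -0.05 (1 of 5 above 0). The 6 tested markers of endothelial and mural cells summed to 6321 to 7587 in the controls and to 5670 to 6023 with OPP, with 1 above 0, 5 below and a median of -0.22. Granulocyte markers summed to 2925 to 26372 in the controls and to 1398 to 1667 with OPP. Of the granulocyte markers 1 was above background on all 6 arrays. The others could pass the filter through the controls alone, which favours lower values with OPP. All tested markers lay below 0 for oligodendrocytes (6, median -0.21), meningeal fibroblasts (4, median -0.19), red cells (3, median -0.36) and cerebellum (4, median -0.41) as well. In the meningeal and the cerebellum sets 3 markers each were above background on all 6 arrays, so the same limit holds there. Markers of neurons (4 of 7 above 0, median 0.02), microglia (4 of 5, median 0.05) and choroid plexus (2 of 3, median 0.03) lay mostly above 0. Above background on all 6 arrays were 4 of the microglia and 2 of the choroid plexus markers, so the rest could pass the filter through 1 group there too. The part of any of these cells in the *Mt1* and *Mt2* differences was not tested.

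**Figure D3:**
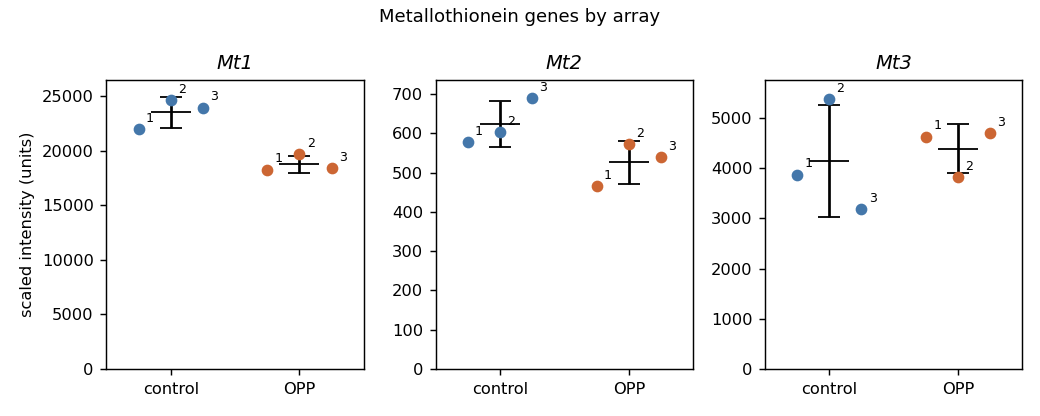
Scaled intensity (y axis, units) of Mt1, Mt2 and Mt3 on the 3 control and 3 OPP arrays (x axis), with points numbered by replicate, horizontal lines for means and bars for the SD. Mt1 and Mt2 points do not overlap between groups, and Mt3 points do, with controls from 3192 to 5372.

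In the glutathione system 13 of 16 genes were tested, of which 3 lay above 0 and 10 below, with a median log2 fold change of -0.10, a range of -0.29 to 0.07 and 0 unadjusted calls. Without control replicate 2 the median was -0.03. The synthesis genes came out differently in detection. *Gclm*, which encodes the modifier subunit of the enzyme that limits glutathione synthesis, had intensities of 678, 645 and 555 in the controls and 568, 461 and 583 with OPP. The OPP values ran lower on the whole and overlapped the controls (log2 fold change -0.22, SE 0.13). *Gclc*, which encodes the catalytic subunit of that enzyme, and *Gss*, which encodes glutathione synthetase, were not above background on any array. *Gsr*, which encodes the reductase that regenerates glutathione, had a fold change of -0.03, and the glutaredoxin gene *Glrx* one of -0.05.

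Glutathione peroxidases reduce peroxides with glutathione. *Gpx3*, which encodes the secreted plasma form, had intensities of 493, 523 and 531 in the controls and 348, 436 and 494 with OPP. OPP replicate 3 lay just above the lowest control and the other OPP brains below all controls. Its log2 fold change was -0.29 (SE 0.14, 95% interval -0.60 to 0.01). It was -0.40 and passed unadjusted without OPP replicate 3. *Gpx1*, the cytosolic form, which is abundant in blood cells as well, had intensities of 2061, 3358 and 2023 in the controls and 2223, 2269 and 2012 with OPP. Control replicate 2 stood above the other 5 brains, which lay close together. The fold change of *Gpx1* was -0.15 (SE 0.19), and it was 0.08 without control replicate 2. *Gpx4*, which protects membranes from lipid peroxides and cells from ferroptosis, had a fold change of -0.10, or -0.02 without that brain.

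The glutathione transferases, which conjugate glutathione to electrophiles, had log2 fold changes from -0.11 (*Gstm1*) to 0.07 (*Gstm5*), with *Gsta4* at -0.04, *Gsto1* at 0.00 and *Gstt1* at 0.02. *Gstp1* gave -0.10 on its brightest probe, with 4831, 4671 and 4218 in the controls and 4768, 4298 and 3760 with OPP. On another probe of *Gstp1* the fold change was -0.23, with 2239, 2532 and 2226 in the controls and 2059, 2034 and 1853 with OPP, and on the remaining one -0.06. Only the second of these probes separated the groups. The identifier of the brightest *Gstp1* probe holds another number than those of the other *Gstp1* probes, and whether it was designed on another gene was not checked. Whether probes of this family also bind transcripts of related transferases was not checked either.

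*Mgst3*, which encodes a microsomal transferase with peroxidase activity, had intensities of 2070, 3174 and 2315 in the controls and 2138, 2567 and 1869 with OPP. Its log2 fold change was -0.19 (SE 0.18) and its other probe gave -0.18, and on both probes control replicate 2 was the highest array. Without control replicate 2 the fold change was -0.01. *Mgst1*, a related enzyme that is abundant in liver, was above background in 2 controls and 1 mouse given OPP and was not tested. It had 380, 591 and 262 units in the controls and 258, 289 and 263 with OPP. Control replicate 2 again had the highest value. For *Gpx1*, *Mgst3* and *Mgst1* the highest array was thus the brain with the highest granulocyte and red cell markers. The microglia and macrophage markers had their highest mean log2 intensity in that brain too (8.99, against 8.63 to 8.85 on the other arrays). That brain also had the lowest mean log2 intensity of the cerebellum, choroid plexus and oligodendrocyte markers. Control replicate 2 was the highest array for *Gpx4* (8016 units) and *Gstt1* (368 units) too, and on the dimmer *Gstp1* probes. The remaining tested glutathione genes did not share the pattern, and *Gstm1* was lowest on that array by a narrow margin. The part of blood cells or of any other cells in these differences was not tested.

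**Figure D4:**
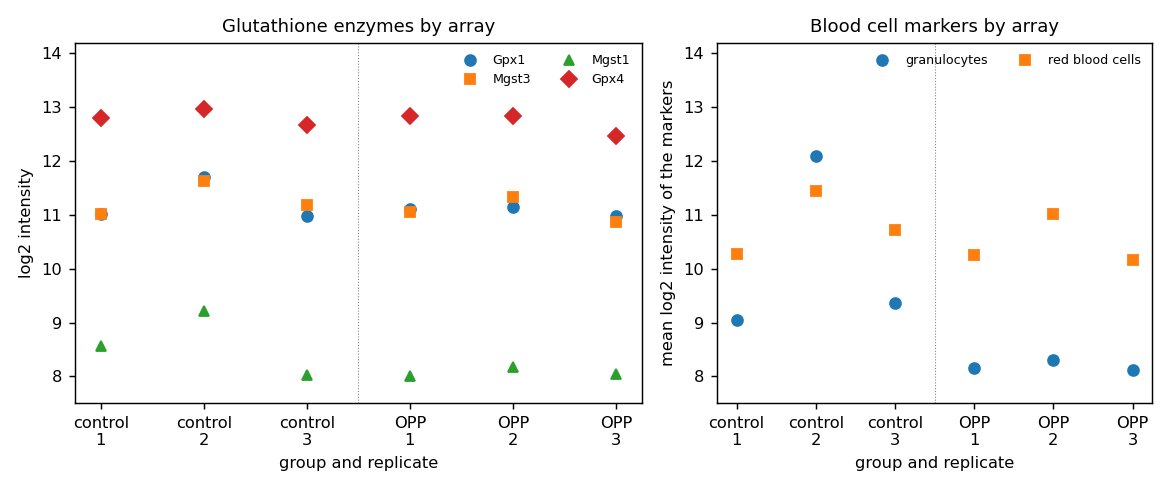
Log2 intensity of 4 glutathione enzyme genes (left) and mean log2 intensity of the tested granulocyte and red blood cell markers (right) on each of the 3 control and 3 OPP arrays (x axis). Control replicate 2 is the highest array for Gpx1, Mgst3, Mgst1 and Gpx4 and for both sets of markers, at 12.09 for granulocytes.

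Peroxiredoxins remove hydrogen peroxide and are recharged by thioredoxin, which thioredoxin reductase keeps reduced with NADPH. Of the 10 genes listed here 8 had a probe and 6 were tested, 3 above 0 and 3 below, with a median log2 fold change of -0.01. *Prdx4*, the peroxiredoxin of the endoplasmic reticulum, had intensities of 988, 799 and 975 in the controls and 747, 831 and 767 with OPP. Control replicate 2 fell among the OPP values, and the other controls lay above them all. Its fold change was -0.23 (SE 0.12), and it was -0.33 and passed unadjusted without control replicate 2. *Prdx1*, a cytosolic form and an NRF2 target, had 6198, 4836 and 5443 in the controls and 5589, 5708 and 6293 with OPP, which overlapped (0.10, SE 0.12). *Prdx3*, the mitochondrial form, had 921, 943 and 1031 in the controls and 931, 1073 and 822 with OPP. The OPP values of *Prdx3* surrounded those of the controls (-0.04). The remaining fold changes were 0.00 for *Prdx2*, -0.03 for the mitochondrial thioredoxin gene *Txn2* and 0.02 for *Txnrd2*, which encodes its reductase. *Txn1* and *Txnrd1*, which encode the cytosolic pair, were not above background on any array.

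Superoxide dismutases convert superoxide to hydrogen peroxide. *Sod1*, the copper and zinc enzyme of the cytosol, had intensities of 2883, 3052 and 2812 in the controls and 2827, 2532 and 3257 with OPP. *Sod2*, the manganese enzyme of mitochondria, had 1232, 1338 and 1419 in the controls and 1266, 1329 and 1415 with OPP. Both overlapped fully, with log2 fold changes of -0.03 (95% interval -0.29 to 0.23) and 0.01 (95% interval -0.22 to 0.24). *Sod3*, the extracellular form, and *Cat*, which encodes catalase, were not above background on any array.

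In the NRF2 group the regulators came first. Neither probe of *Nfe2l2* was above background on any array, with intensities of 187, 165 and 170 in the controls and 174, 188 and 159 with OPP on the brighter one. The transcript of NRF2 could therefore not be compared here. *Keap1* had intensities of 1545, 1512 and 1578 in the controls and 1918, 1449 and 1560 with OPP (log2 fold change 0.08), and 0.05 on each of its other probes. OPP replicate 1 was the highest array on all 3 probes, while the other OPP brains lay among or below the controls. Of the 14 genes in this group 13 had a probe and 10 were tested, 3 above 0 and 7 below, with a median of -0.03 and 0 unadjusted calls. The median was -0.10 without control replicate 1.

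*Hmox1*, which encodes the inducible heme oxygenase, had intensities of 348, 352 and 363 in the controls and 306, 344 and 384 with OPP. The OPP values lay on both sides of the controls (-0.05). *Hmox2*, the constitutive form, had a log2 fold change of 0.00. *Nqo1*, which encodes a quinone reductase, had 242, 236 and 294 in the controls and 249, 309 and 200 with OPP on its brighter probe. It was above background in 1 control and 1 mouse given OPP and was not tested. *Slc7a11*, which encodes the cystine transporter that feeds glutathione synthesis, was not above background on any array.

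*Blvrb*, which encodes a biliverdin and flavin reductase abundant in red cells, had intensities of 293, 295 and 336 in the controls and 248, 288 and 252 with OPP. The groups did not overlap, by a margin of few units (-0.23, SE 0.11). On the authors' processed values the fold change was -0.72. The gene was tested only through its detection in the controls, so its direction gives no support to a difference. The 3 tested red cell markers lay below 0 as well, with summed intensities of 12666 to 35010 in the controls and 11941 to 26861 with OPP, and their part in the *Blvrb* difference was not tested. *Srxn1*, which encodes sulfiredoxin, the enzyme that rescues overoxidized peroxiredoxins, had 1176, 1236 and 1124 in the controls and 1068, 1085 and 1048 with OPP. All OPP values lay below the controls, with a fold change of -0.14 (SE 0.09), but the groups overlapped without scaling and after quantile normalization. Its other probes gave -0.16 and 0.00, and neither separated the groups.

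*Taldo1*, which encodes transaldolase of the pentose phosphate pathway, had 2111, 2429 and 2105 in the controls and 2248, 1997 and 1817 with OPP. OPP replicate 1 lay within the controls (fold change -0.13, SE 0.12). *Me1*, which encodes the cytosolic malic enzyme that yields NADPH, had 770, 548 and 657 in the controls and 687, 673 and 847 with OPP. Control replicate 2 was the lowest array, and the fold change was 0.17 (SE 0.15). It was 0.04 without control replicate 2, 0.06 without OPP replicate 3 and 0.29 without control replicate 1. Of the iron store genes, *Fth1* had a fold change of -0.11 and *Ftl1* one of -0.01, and *Sqstm1*, which encodes the autophagy receptor p62 that competes for KEAP1, one of 0.03.

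Of 127 further genes of these pathways 64 were tested, of which 24 lay above 0 and 40 below, with a median log2 fold change of -0.03. At an unadjusted p under 0.05, 0 were higher and 3 lower, against 1.7% and 2.29% of all tested genes. These counts use the brightest probe of each gene. On its second probe *Lancl1*, of the further glutathione genes, had 779, 711 and 799 in the controls and 892, 893 and 1062 with OPP. All OPP values of that probe lay above the controls (0.31, SE 0.11, unadjusted p 0.020 and adjusted p 0.989 from limma). The brightest *Lancl1* probe gave 0.18 (SE 0.13). *Selenom*, which encodes a redox selenoprotein of the endoplasmic reticulum, had intensities of 957, 907 and 861 in the controls and 626, 762 and 651 with OPP. The groups did not overlap (-0.42, SE 0.11). *Nxn*, which encodes nucleoredoxin of the thioredoxin fold, had 1039, 864 and 1071 in the controls and 900, 831 and 654 with OPP. OPP replicate 1 lay above control replicate 2 (-0.33, SE 0.14). These were 2 of 19 tested genes of the thioredoxin fold and selenoprotein list, which had 5 above 0, 14 below and a median of -0.07.

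*Trf*, which encodes the iron carrier transferrin and is made in the brain by oligodendrocytes and choroid plexus, had intensities of 2262, 1925 and 1905 in the controls and 1163, 1721 and 1303 with OPP. All OPP values lay below the controls, with a log2 fold change of -0.56 (SE 0.15). The 6 tested oligodendrocyte markers all lay below 0 (median -0.21), with summed intensities of 33357 to 44074 in the controls and 30532 to 38535 with OPP, and their part in the *Trf* difference was not tested. The 3 tested choroid plexus markers did not share that direction (2 above 0, median 0.03), with summed intensities of 4023 to 11409 in the controls and 7869 to 11828 with OPP. *Trf* was 1 of 13 tested genes of zinc and iron handling, 7 above 0 and 6 below (median 0.05). The 17 tested further glutathione genes had 4 above 0, 13 below, a median of -0.05 and 0 unadjusted calls. The 15 tested further NRF2 targets and regulators had 8 above 0, 7 below, a median of 0.01 and 0 unadjusted calls, and in 3 of them (*Bach1*, which encodes a repressor at AREs, *Ephx1* and *Slc48a1*) all OPP values lay below the controls, against 5.41% of all tested genes; these 3 were picked for that.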

How the data were processed

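Total RNA of 3 control and 3 OPP brains was amplified, labelled with biotin and hybridized to 1-colour Illumina MouseRef-8 Version 1 arrays. The authors used BeadStudio to give every probe an average bead intensity with a detection p-value (version 1.5.1.3 in the submitters' processing notes), and the deposited intensities were neither normalized nor background-subtracted. The deposited detection p-value compares a probe with the negative control beads of its array, and the detection level is 1 minus it. The authors' processed table holds the same arrays after background subtraction and scaling on a linear signal scale. Each array's values there lay on a straight line of the deposited intensities, and they were used as an alternative and for the authors' means.

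For scaling between arrays, 4258 rank-invariant probes were used (factors 0.900 to 1.04). The methods name a rank-invariant method without its rule. The rule used here took probes between the 50th and 90th percentile of intensity whose rank stayed within 5% on every array. The result differed from the authors' scaling. Control replicates 1 and 2 had factors of 1.04 and 1.02 here and slopes of 1 and 1.09 in the authors' processed values. A floor of 10 was then set and log2 taken. Probes above background numbered 7442 to 7903 per array and the median intensity was 205 to 245. The 7611 probes whose detection level averaged over 0.99 in either group were fitted with limma 3.58.1 in R 4.3.3 (lmFit and eBayes) and adjusted by Benjamini-Hochberg over all of them; the error model of BeadStudio that the methods name was not rerun. The number of arrays limits the precision. Probes were named by the platform annotation, which left 4650 probes unnamed, and promoter sequences came from RefSeq (GRCm38.p6). All 6 values are given for the metallothioneins, *Nfe2l2*, *Keap1*, *Hmox1*, *Nqo1*, genes with an unadjusted p under 0.05 and the 3 tested genes of each group with the smallest p. *Gpx1*, *Mgst1*, *Me1*, the brightest *Gstp1* probe and its second probe are given with all values outside this rule and were chosen after their values were seen. From the further lists, genes with an unadjusted p under 0.05 are named. *Bach1*, *Ephx1*, *Slc48a1* and the second probe of *Lancl1* were added after their values were seen. The genes and lists were chosen with earlier results of these data known. Alternatives changed the scaling, background correction, filter, probe, weights, test and block, or left out 1 brain.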

Additional observations from a re-analysis of the deposited data

How the results depend on the processing

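With 3 arrays per group and 95% intervals of up to 0.60 on the log2 scale, small differences in these genes could not be resolved, and genes not above background could not be compared. In all 16 alternatives 0 of the listed genes passed at an adjusted p under 0.05 from limma, while 1 passed unadjusted in the main analysis. The number of listed genes lower at an unadjusted p under 0.05 was 0 without scaling and 0 after quantile normalization, 5 with no filter on dim probes (*Blvrb*, *Gpx3*, *Mgst1*, *Mt1* and *Mt2*, where 2.32% of all genes were lower), 5 with array weights (*Blvrb*, *Gpx3*, *Mt1*, *Mt2* and *Prdx4*, where 6.16% of all genes were lower) and 2 by the methods' t-test (*Mt1* and *Srxn1*, 2.87% of all genes), a test that the methods use for other readouts than the arrays. It was 1 to 2 with 1 brain left out, *Prdx4* being added without control replicate 2, *Blvrb* without OPP replicate 2 and *Gpx3* without OPP replicate 3, and the number higher was 0 to 1 (*Mt3*, without control replicate 2, where 4.36% of all genes were higher and 6.47% lower). With normexp background correction and on the authors' processed values the 1 gene lower was *Blvrb* instead of *Mt1*, and *Blvrb* was tested only through its detection in the controls. The median of the glutathione system was -0.012 with array weights, against -0.10, and the other group medians moved by less than the spread between brains. Of the 34 tested genes 12 kept their sign in all alternatives. The same replicate numbers do not pair brains by the labels, and deviations of same-numbered brains correlated at -0.27, 0.05 and 0.17. A fit with the replicate number as a block called 2 genes lower (*Gpx3* and *Mt1*, 1.95% of all genes). The planned block by chip was not run, since the column headers name no chip.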
